A study of Mus musculus with 8 samples.

Results

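The Krüppel-like factors are zinc finger transcription factors, and 10 of them (Klf2, Klf3, Klf4, Klf5, Klf6, Klf7, Klf9, Klf10, Klf13 and Klf15) were followed here in mouse epidermis given a glucocorticoid on the skin. They were taken by their gene symbol in the platform's annotation, which gave 13 of the 13247 probes and 10 of the 9416 genes measured. Klf4 had 3 probes and Klf6 had 2, and each other member had 1. For a gene with several probes the main value came from the probe with the highest mean over the arrays, and every probe is shown.

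RNA of the epidermis of wild-type B6129 mice aged 7 to 8 weeks was measured on 8 Illumina bead arrays. All animals had their backs shaved, and 3 days later received once either 2 µg of fluocinolone acetonide (FA), a synthetic glucocorticoid used against skin inflammation, in 200 µl of acetone, or 200 µl of acetone alone (vehicle). The epidermis was taken 24 h later. The 4 groups (vehicle females, FA females, vehicle males and FA males) held 2 animals each.

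Members of this family bind GC-rich and CACCC-containing DNA through zinc fingers at the end of the protein, and differ in the regions that recruit activators or repressors. In epidermis the family is best known for Klf4, which is needed for the skin barrier, and for Klf5, which is found in the dividing basal layer. Several members, Klf9 and Klf15 among them, are known glucocorticoid receptor targets in other tissues, and KLF9 has been described as a glucocorticoid-responsive brake on proliferation in human keratinocytes.

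The windows of 250 bases before the annotated start are shown for Klf9, Klf13, Klf15 and Klf6, the 4 members that rose with FA. They are RefSeq sequences of build GRCm38.p6, written 5′ to 3′ on the strand of the gene, with CACCC or its reverse complement GGGTG in capitals. They lie at chr19:23140976-23141225 (plus strand) for Klf9, chr7:63938916-63939165 (minus strand) for Klf13, chr6:90462326-90462575 (plus strand) for Klf15 and chr13:5861239-5861488 (plus strand) for Klf6.
Klf9: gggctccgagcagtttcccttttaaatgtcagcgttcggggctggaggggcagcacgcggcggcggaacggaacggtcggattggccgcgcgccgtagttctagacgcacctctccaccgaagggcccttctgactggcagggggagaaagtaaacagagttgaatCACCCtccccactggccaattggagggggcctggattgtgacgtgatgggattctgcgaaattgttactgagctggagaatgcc
Klf13: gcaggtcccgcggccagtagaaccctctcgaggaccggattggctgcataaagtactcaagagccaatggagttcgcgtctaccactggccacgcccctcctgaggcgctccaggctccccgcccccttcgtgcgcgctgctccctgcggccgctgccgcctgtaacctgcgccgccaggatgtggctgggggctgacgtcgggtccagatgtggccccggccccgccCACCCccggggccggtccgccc
Klf15: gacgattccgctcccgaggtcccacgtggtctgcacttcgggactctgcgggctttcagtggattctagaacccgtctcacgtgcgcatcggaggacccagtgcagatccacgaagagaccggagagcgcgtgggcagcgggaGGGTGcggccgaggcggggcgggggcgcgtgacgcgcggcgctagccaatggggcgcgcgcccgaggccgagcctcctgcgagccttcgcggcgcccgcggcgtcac
Klf6: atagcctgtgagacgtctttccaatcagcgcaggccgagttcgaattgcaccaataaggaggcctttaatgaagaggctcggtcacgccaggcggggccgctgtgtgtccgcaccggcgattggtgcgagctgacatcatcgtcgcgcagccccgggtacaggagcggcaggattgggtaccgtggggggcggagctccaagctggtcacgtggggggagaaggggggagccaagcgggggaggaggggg

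Windows were found for 8 of the 10 members. CACCC, counted on both strands, was in 6 of these 8, against 52% of the 32851 promoter windows of the same length. It began 84 bases before the start in Klf9, 22 in Klf13 and 107 in Klf15, and was not in the windows of Klf6 and Klf4. The window of Klf3 held it 5 times. TGTTCT, an arm of the glucocorticoid receptor's palindromic element, was in 0 of the 8 windows on either strand and in 16.1% of all windows. The full element, that arm with its reverse complement 3 bases before it, was likewise in 0 of the 8 and in 0.00913% of all. The motifs do not overlap one another, and these letters say nothing of more distant or altered sites.

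Between 44.5% and 46.9% of the 25697 probes were above background (detection p under 0.05) on 7 arrays, and 32.4% were on female FA replicate 2. That array's lowest signal above background was 5.88 on the log2 scale, against 4.90 to 4.99 on the others, and it correlated with its partner at 0.959, against 0.986 to 0.990 in the other groups. The mean FA effect of the dim members is therefore also given without it. Of 7 measured keratinocyte markers, 6 were above background on all 8 arrays. Of 9 measured glucocorticoid reference genes, which are known targets and the receptor gene Nr3c1, 7 rose with FA and 0 fell in the limma test described next. Nr3c1 was not above background in most arrays and did not pass (adjusted p = 0.496). Among the targets, Fkbp5, a chaperone partner of the receptor, was 16.2-fold higher (log2 difference 4.01 ± 0.16, adjusted p = 3.53e-05).

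FA against vehicle was tested as the mean of the effects in females and males. Of the 10 factors, 4 rose (Klf9, Klf13, Klf15 and Klf6), 0 fell and 6 did not pass. The threshold was an adjusted p of 0.05 in limma (Benjamini-Hochberg, over all 9416 genes), and the value after ± is the standard error of that fit. By that rule 20.8% of all genes passed, 9.40% of all being higher and 11.4% lower. Klf15 was measured only because its FA arrays were above background, so its call is not independent of that choice. The median log2 difference was 0.47 over the 10 factors and -0.02 over all genes. At an unadjusted p under 0.05, 7 of the 10 passed, all of them higher. Of all 9416 genes, 3332 passed at that level, counted in either direction.

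**Figure D1:**
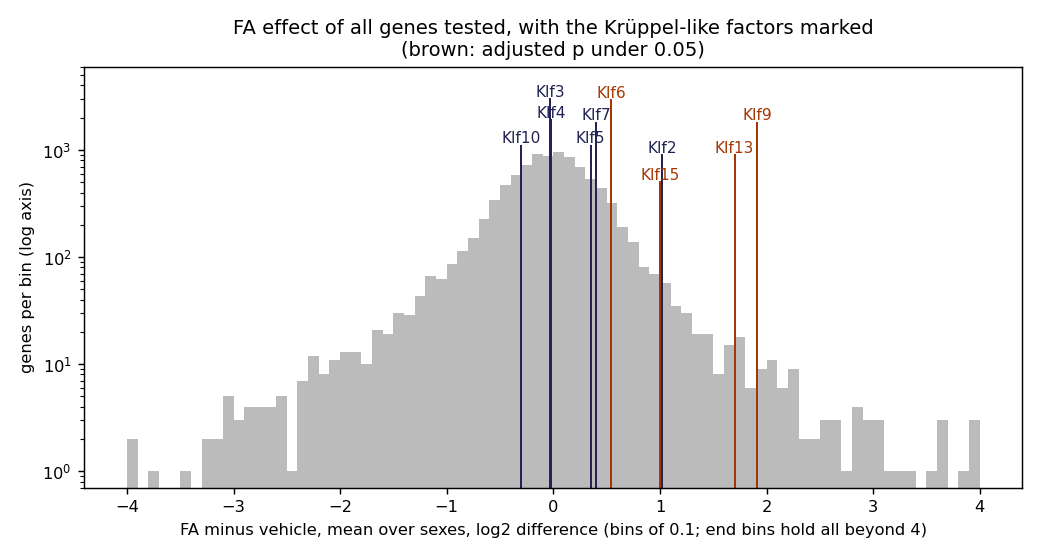
Histogram of the log2 difference between FA and vehicle (mean over sexes) for the 9416 genes, on a log count axis, with a vertical line for each Krüppel-like factor, its height without meaning. Klf9 (1.91) and Klf13 (1.70) lie in the right tail, and Klf3 and Klf4 lie near 0.

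Klf9, a repressor that binds GC-box DNA, showed the largest rise of the 10. Its log2 signal was 9.78 and 9.69 in females given vehicle and 11.85 and 11.76 in females given FA. In males it was 9.78 and 9.66 with vehicle and 11.62 and 11.31 with FA. All 4 FA arrays lay above all 4 vehicle arrays, with a gap wider than the spread within any group. The rise was 3.75-fold (log2 difference 1.91 ± 0.12, limma adjusted p = 0.000133). Its difference was larger than that of 99.3% of the genes.

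Klf13, a close relative of Klf9 that also recruits the Sin3a corepressor, was the next. Females had 6.78 and 7.89 with vehicle and 9.09 and 9.21 with FA. Males had 7.47 and 7.77 with vehicle and 9.06 and 9.36 with FA. No FA array overlapped a vehicle array, although the vehicle females stood further apart than any other pair of arrays of a group. The rise was 3.25-fold (1.70 ± 0.24, limma adjusted p = 0.00361).

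Klf15, a regulator of amino acid breakdown in muscle and liver, was not above background on any vehicle array and was above it on all 4 FA arrays. The FA signals were 5.50 and 6.02 in females and 5.31 and 5.43 in males, and the vehicle values of 4.47 to 4.66 mark only a bound. The mean of the FA arrays was at least 1.55-fold above the vehicle arrays' lowest signal above background (fitted log2 difference 1.0 ± 0.15, limma adjusted p = 0.00412). Probes were kept if above background on at least 2 arrays, and Klf15 met this through its FA arrays alone. Its bounds, its calls and the order of its arrays, in the mean and in each sex, are therefore not independent of that filter. With a larger background offset (50 in place of 16) the fitted difference was 0.50, still called. Skeletal muscle, where Klf15 is abundant, had 10 marker genes measured, none of which passed in either direction. Their summed linear signal was 2090 to 9000 with vehicle, 644 and 1490 in the FA females and 15600 and 28000 in the FA males. Klf15 was above background on each of these 4 FA arrays, and the part of muscle in its values was not tested. Without female FA replicate 2 the fitted difference was 0.87 (adjusted p = 0.00166) and the bound 1.41-fold.

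Klf6, a ubiquitous zinc finger activator induced early in injured tissue, rose on its main probe ILMN_2731949. This probe read 10.33 and 10.17 in vehicle females, 11 and 11.01 in FA females, 10.30 and 10.20 in vehicle males, and 10.83 and 10.34 in FA males. The lower FA male, at 10.34, lay beside the highest vehicle array, at 10.33. The rise was 1.46-fold (0.54 ± 0.14, limma adjusted p = 0.0343). The call was lost in 5 of the 8 fits that left out 1 array: without female vehicle replicate 1 (0.58, adjusted p = 0.0813) or 2 (0.50, 0.113), male vehicle replicate 1 (0.57, 0.0896) or 2 (0.52, 0.114), and male FA replicate 1 (0.42, 0.0882). It was also lost with median scaling (0.53, adjusted p = 0.0529) and with the mean of both probes (0.36, 0.0664).

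**Figure D2:**
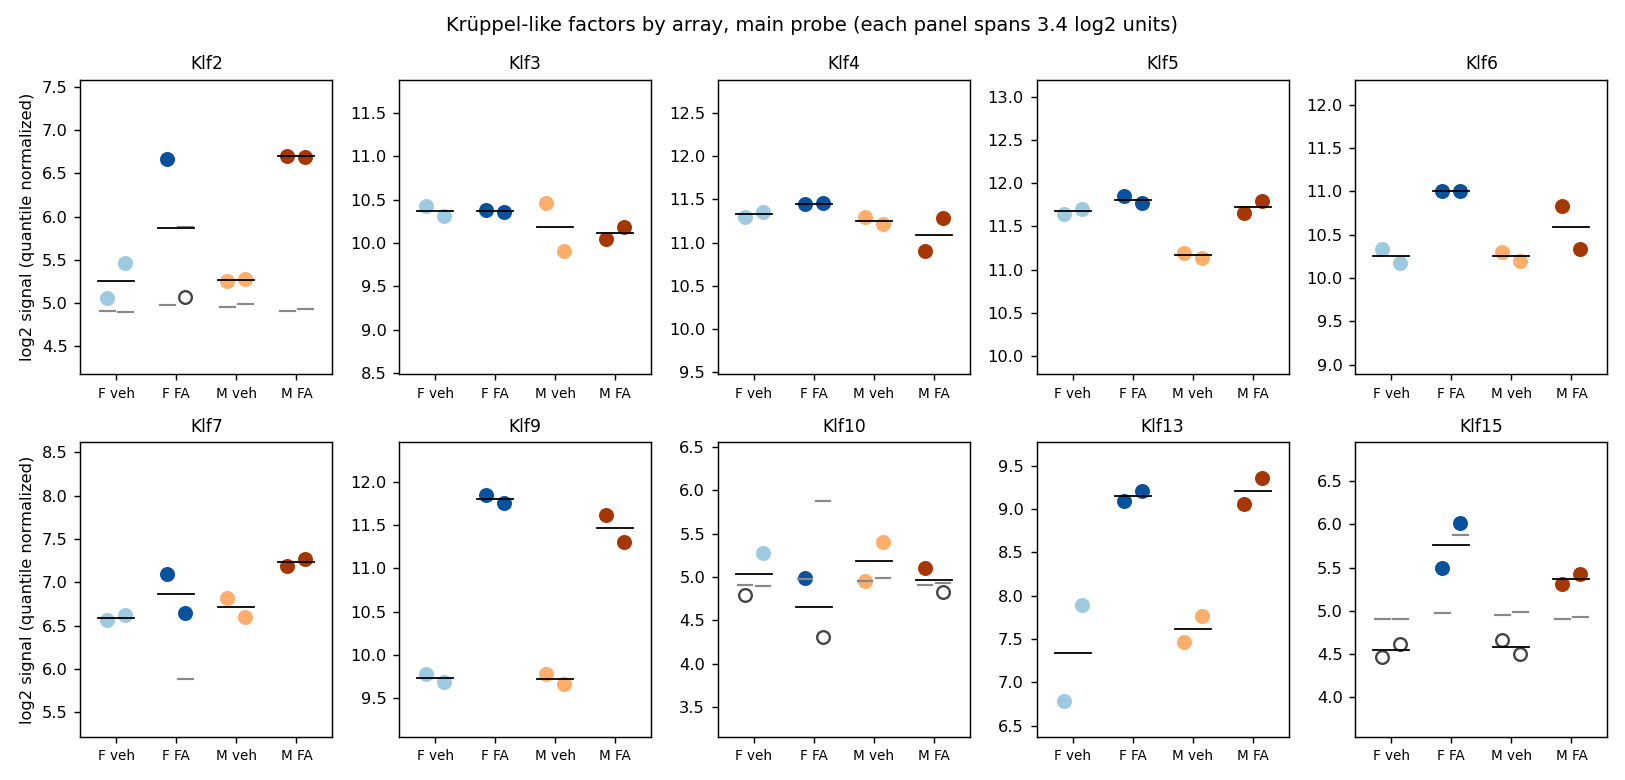
Log2 signal of each factor's main probe on each array (point), by group (F, females; M, males; veh, vehicle), with the group mean as a black line and each array's lowest signal above background as a grey tick where it falls in the panel. Open points were not above background. For Klf6, Klf9, Klf13 and Klf15 all FA points lie above all vehicle points.

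These 4 factors were also the ones whose 4 FA arrays all lay above the 4 vehicle arrays, as held for 11.6% of all genes. For Klf15, kept through its FA arrays alone, this order is not independent of the filter. Asked within each sex, both FA arrays lay above both vehicle arrays in females and in males for 6 factors (the same 4 with Klf5 and Klf7), against 15.2% of all genes.

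Klf2, a quiescence factor of T cells and endothelium, did not pass over all 8 arrays. Its signals were 5.06 and 5.46 in vehicle females, 6.67 and 5.07 in FA females, 5.25 and 5.28 in vehicle males and 6.70 and 6.69 in FA males. The 3 high values are FA arrays, and the low one is female FA replicate 2, where the probe was not above background. Over all arrays the difference was 1.02 ± 0.32 (limma adjusted p = 0.0614). Without female FA replicate 2 the difference was 1.42, and without female FA replicate 1 it was 0.62. In the latter fit the FA females were 1 array, where Klf2 was not above background, and the female value was -0.19. The call was made with median scaling (1.35, limma adjusted p = 0.00526), which moved the median of all genes in females from -0.04 to 0.15. It was also made with low values raised to each array's lowest signal above background (1.22, limma adjusted p = 0.00285). Raising set female FA replicate 2 from 5.07 to 5.88, above every vehicle value of Klf2, so that call is not independent of its background.

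Markers of cell types that carry Klf2 were read beside it. Of 6 measured T cell markers, 5 fell with FA, from a summed linear signal of 1980 to 2400 in vehicle to 766 to 1070 in FA arrays, and Trdc, Il2rb and Skint1 had no measured probe. Of 5 measured endothelial markers 0 passed, the sum was 149 to 182 in vehicle and 163 to 235 in FA arrays, and none was above background on all 8 arrays. Of 7 measured Langerhans cell markers 6 fell and 1 rose, with sums of 13000 to 14700 and 2680 to 4300.

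Markers of other cells moved with FA as well. Of 9 dermal fibroblast markers 4 fell, with sums of 1990 to 5950 in vehicle and 711 to 1950 in FA arrays. Only 2 of these 9 were above background on all 8 arrays, and Thy1 is also among the T cell markers. Of 9 sebaceous gland markers 3 fell (20900 to 23200, and 5510 to 22500), and of 5 measured hair follicle markers 2 fell (944 to 2030, and 187 to 1360). The sebaceous sums with FA were 9230 and 5510 in females, and 22500 and 12300 in males. The hair follicle markers had a median log2 difference of 0.48, and none was above background on all 8 arrays. Of 2 measured erythrocyte markers 1 fell (399 to 591, and 88.8 to 154), and none of these 4 lists had a gene that passed as higher. In these bulk samples, fewer cells of a type and less RNA per cell cannot be told apart, and the part of these shifts in the values of the factors was not tested.

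Klf5, an activator of proliferation in basal epithelium, read 11.65 and 11.70 in vehicle females, 11.85 and 11.77 in FA females, 11.19 and 11.14 in vehicle males, and 11.66 and 11.80 in FA males. The vehicle males were the low arrays, so FA males overlapped the vehicle females. The difference was 0.35 ± 0.11 (limma adjusted p = 0.0577), and it passed with offset 50 (adjusted p = 0.0224) and when probes above background on all 8 arrays alone were tested (0.0234). Klf7, known from neurons and fat cell precursors, had 6.56 and 6.62, then 7.10 and 6.64, in females given vehicle and FA, and 6.82 and 6.60, then 7.19 and 7.27, in males. Its difference was 0.40 ± 0.14 (adjusted p = 0.0845), and 0.51 (adjusted p = 0.0221) without female FA replicate 2.

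Klf3 and Klf10 did not pass. Klf3, a repressor that recruits CtBP, spanned 9.91 to 10.46 over the 8 arrays, and its groups overlapped (difference -0.03, 95% interval -0.38 to 0.31). Klf10, the TGF-beta inducible early gene, was above background on 5 of the 8 arrays with values of 4.31 to 5.40. Its difference was -0.30 ± 0.21 (adjusted p = 0.349), and -0.13 (adjusted p = 0.641) without female FA replicate 2. It changed sign to 0.09 when low values were raised in this way, so no direction can be given for it.

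Klf4 was measured by 3 probes, and none of them passed. The main probe ILMN_2999439 read 11.30 and 11.35 in vehicle females, 11.44 and 11.46 in FA females, 11.29 and 11.21 in vehicle males, and 10.90 and 11.28 in FA males. Its difference was -0.02 (95% interval -0.31 to 0.28). The second probe, ILMN_1241903, gave 0.28 (interval -0.13 to 0.69), and the third, ILMN_1221264, gave 0.09 (interval -0.38 to 0.55). With the mean of all probes the value was 0.12.

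The second probe of Klf6, ILMN_1232041, was dim and did not follow the main one. It read 5.63 and 5.75 in vehicle females, 5.27 and 5.32 in FA females, 5.58 and 5.06 in vehicle males, and 5.81 and 6.33 in FA males. It was lower in both FA females and higher in both FA males, and 1 FA female value was not above background. The mean difference was 0.18 (95% interval -0.23 to 0.58, limma adjusted p = 0.515), and 0.17 (adjusted p = 0.569) without female FA replicate 2.

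**Figure D3:**
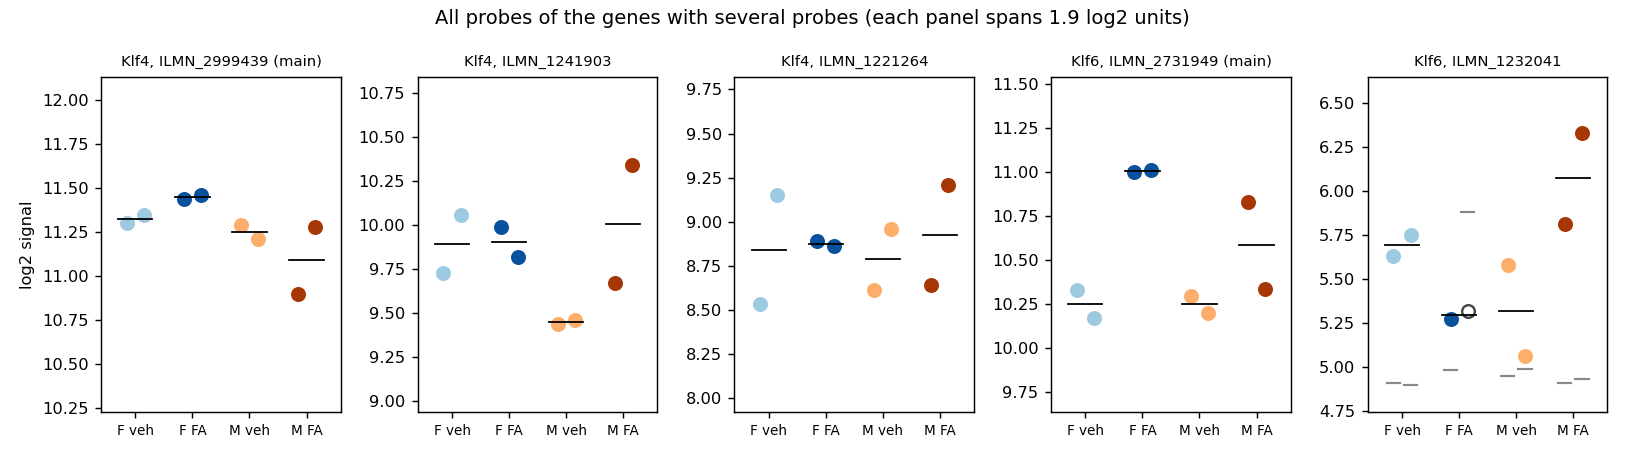
Log2 signal by array for the 3 probes of Klf4 and the 2 probes of Klf6, with symbols as in the plot of all factors. The FA arrays of the Klf6 main probe lie above the vehicle arrays, while those of its second probe lie below in females and above in males.

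In females alone 3 of the 10 factors rose and 0 fell, where 4.57% of all genes passed as higher. These were Klf9 (2.07 ± 0.17, 4.21-fold, limma adjusted p = 0.000886), Klf13 (1.81 ± 0.34, 3.51-fold, 0.0204) and Klf15 (1.22 ± 0.21, at least 1.81-fold, 0.0142). Klf6 was at 0.75 ± 0.20 (adjusted p = 0.0571). Klf13 lost its call without female vehicle replicate 1 (1.26, adjusted p = 0.0696), and Klf15 without female vehicle replicate 1 (1.15, 0.106) or 2 (1.29, 0.0846). Without female FA replicate 2, Klf15 was at 0.96 (adjusted p = 0.0217), at least 1.51-fold higher. Klf2 was at 0.61 ± 0.45, at 1.41 (adjusted p = 0.00531) without FA replicate 2 and at -0.19 (adjusted p = 0.558) without FA replicate 1.

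In males alone 2 rose and 0 fell, where 4.01% of all genes passed as higher. Klf9 was 3.35-fold higher (1.74 ± 0.17, limma adjusted p = 0.00201) and Klf13 3.00-fold higher (1.59 ± 0.34, adjusted p = 0.0344). Klf13 lost its call when any of the 4 male arrays was left out: 1.44 (adjusted p = 0.189) and 1.74 (0.135) without vehicle replicates 1 and 2, and 1.73 (0.114) and 1.44 (0.192) without FA replicates 1 and 2. Klf15 was at 0.79 ± 0.21 (at least 1.32-fold, adjusted p = 0.0653), Klf5 at 0.56 ± 0.15 (0.0678), Klf2 at 1.43 ± 0.45 (0.104) and Klf6 at 0.33 ± 0.20 (0.378). With either female FA array left out, Klf2, Klf5 and Klf15 passed in males (adjusted p = 0.001, 0.0457 and 0.0135), since the 4 groups share 1 estimate of the spread.

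**Figure D4:**
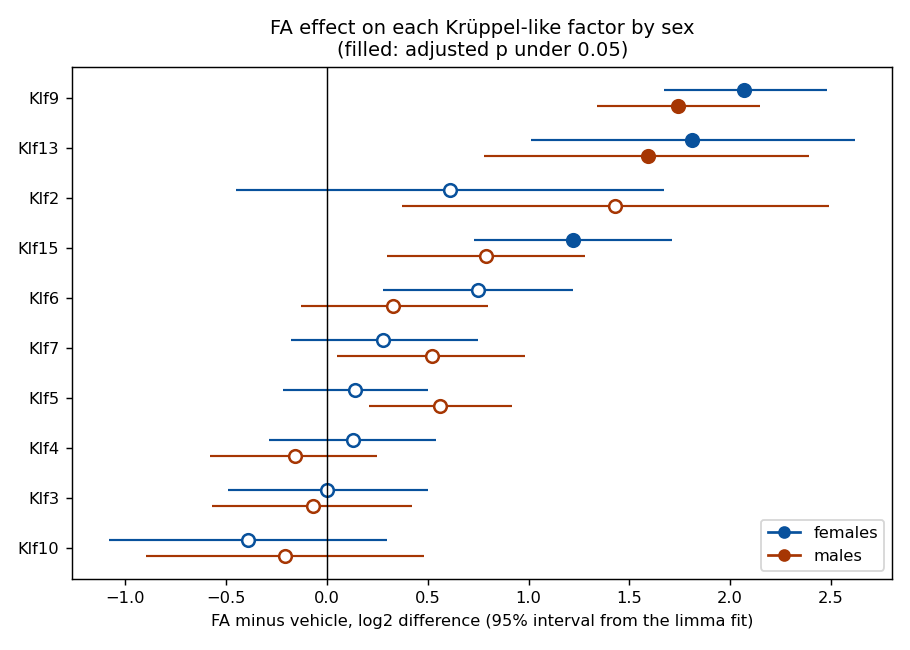
Log2 difference between FA and vehicle for each factor in females (blue) and males (brown), with the 95% interval of the limma fit. Klf9 and Klf13 passed in both sexes and Klf15 in females, and the intervals of the sexes overlap for all 10 factors.

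The difference between the sexes' responses was tested itself, as male minus female FA effect. None of the 10 factors passed in limma, and 0.0212% of all genes passed. At an unadjusted p under 0.05, 0 of the 10 passed, beside 618 of the 9416 genes. For Klf9 the difference was -0.33 (95% interval -0.90 to 0.25) and for Klf15 -0.43 (-1.13 to 0.26). For Klf2 it was 0.82 (-0.68 to 2.32), 0.02 (adjusted p = 0.994) without female FA replicate 2, the array of high background, and 1.62 (adjusted p = 0.0111) without female FA replicate 1. In that last fit 1135 of the 9416 genes passed, against 2 in the fit of all arrays. Without FA, 0 of 10 factors differed between males and females, as did 0.0743% of all genes. Klf5 was the 1 factor of the 10 under an unadjusted p of 0.05, a level that 545 of the 9416 genes met. It was lower in males by a log2 difference of -0.51 (limma adjusted p = 0.631). With FA, 0 of 10 differed, and 0.202% of all genes did. At an unadjusted p under 0.05, 0 of 10 differed with FA, beside 1165 of the 9416 genes. For Klf2 the value was 0.03 (adjusted p = 0.995) without female FA replicate 2. It was 1.62 (adjusted p = 0.00153) without replicate 1, a fit in which 2024 of the 9416 genes passed, against 19 with all arrays, and whose only FA female array had Klf2 not above background.

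The family's surroundings were followed through lists of related genes, described here by their mean FA effect. By the same test 9.40% of all genes rose and 11.4% fell, the background for each count. Of 6 other KLF and SP factors measured, Sp6, an epithelial factor of teeth and hair, rose (0.41, limma adjusted p = 0.0419) and 0 fell. The call of Sp6 was lost in 7 of the 8 fits that left out 1 array. Of 14 cofactors and degradation enzymes, 2 rose and 2 fell. Siah1a, a ubiquitin ligase, rose 1.84-fold (0.88, adjusted p = 0.00781) and Sap30, a Sin3 complex subunit, 1.38-fold (0.47, 0.0198). The histone deacetylase gene Hdac1 fell by 0.82 on the log2 scale (adjusted p = 0.0126) and Rbbp7, a histone chaperone of the same complexes, by 0.92 (0.0381). The calls of Hdac1, Sap30 and Rbbp7 were lost in 2, 6 and 6 of the 8 fits. Rbbp7 was at -0.35 (adjusted p = 0.111) on the probe that was above background on all 8 arrays, and at -0.47 (0.0271) with the mean of its probes.

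Of 15 differentiation factors 1 passed, Ovol2, an epithelial zinc finger repressor (0.79, limma adjusted p = 0.0127, lost in 3 of 8 fits). Of 18 barrier genes studied with Klf4, 4 rose and 2 fell, with a median of 0.10. Krt1, the suprabasal keratin, was 8.02-fold lower (-3.00, adjusted p = 5.91e-05) and Krt2 2.77-fold lower (-1.47, 0.000989), whereas Cldn1, a tight junction protein, was 1.84-fold (0.88, 0.00432) and Ivl, the cornified envelope protein involucrin, 1.77-fold higher (0.83, 0.0128). The call of Ivl was lost in 2 of 8 fits. In females 3 of the 18 rose and 1 fell, with a median of 0.48, and in males 0 rose and 3 fell, with a median of -0.11. Of all 9416 genes, 430 rose and 514 fell in females, and 378 rose and 393 fell in males. Krt2 was at -0.64 in females (adjusted p = 0.114) and -2.30 in males (0.00183). Sprr1a, a cornified envelope precursor named after its values were seen, rose in females (0.90, adjusted p = 0.0452) and fell in males (-1.22, 0.0175). The test of the difference between the sexes' effects passed for 0 of the 18, with adjusted p = 0.502 for Krt2 and 0.328 for Sprr1a. Klf4 itself did not pass.

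Of 12 basal epithelial genes studied with Klf5, 2 rose and 6 fell, with a median of -0.45. Ccnd1, the G1 cyclin, was 6.11-fold lower (-2.61, limma adjusted p = 3.53e-05) and Birc5, a mitotic survival protein, 3.97-fold lower (-1.99, 0.00179). Cdk1, the mitotic kinase, was at least 2.31-fold lower (-1.61, 0.00203), and Krt5, the basal keratin, 2.23-fold lower (-1.16, 0.00215). Of the 7 measured keratinocyte markers, 3 fell, with summed signals of 92700 to 95600 in vehicle and 65900 to 71700 in FA arrays.

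The amino acid enzymes studied with Klf15 did not move together: of 14 measured, 2 rose and 2 fell. Prodh, the proline dehydrogenase gene, was 2.59-fold (1.37, limma adjusted p = 0.000701) and Got1, an aspartate aminotransferase, 1.49-fold higher (0.58, 0.00991). Oat, the ornithine aminotransferase gene, was 4.4-fold lower (-2.14, 0.000133) and Gpt, an alanine aminotransferase, 2.82-fold lower (-1.49, 0.00122).

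Of 12 TGF-beta response genes studied with Klf10, 2 rose and 2 fell. Tgif1, a corepressor of Smads, was at 1.08 (limma adjusted p = 0.00593), Smad4 at 0.53 (0.0183), Smad2 at -0.59 (0.0127) and Id1, an inhibitor of differentiation, at -0.79 (0.017). The calls of Smad2, Id1 and Smad4 were lost in 2, 5 and 5 of the 8 fits. Of 15 circadian clock genes, a list included since Klf9, Klf10 and Klf15 cycle with the clock in several tissues, 4 rose and 3 fell. The repressors Nfil3 and Per1 were 4.52-fold (2.18, 0.000319) and 2.86-fold higher (1.52, 0.0017), and Per1 is itself among the glucocorticoid reference genes. Dbp, a clock output activator, and Per3 were 2.78-fold (-1.47, 0.00272) and 1.88-fold lower (-0.91, 0.00746). Of 6 quiescence and migration genes studied with Klf2, Cdkn1a, the p21 cell cycle inhibitor, rose (0.48, 0.0285, lost in 6 of 8 fits) and 0 fell.

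**Figure D5:**
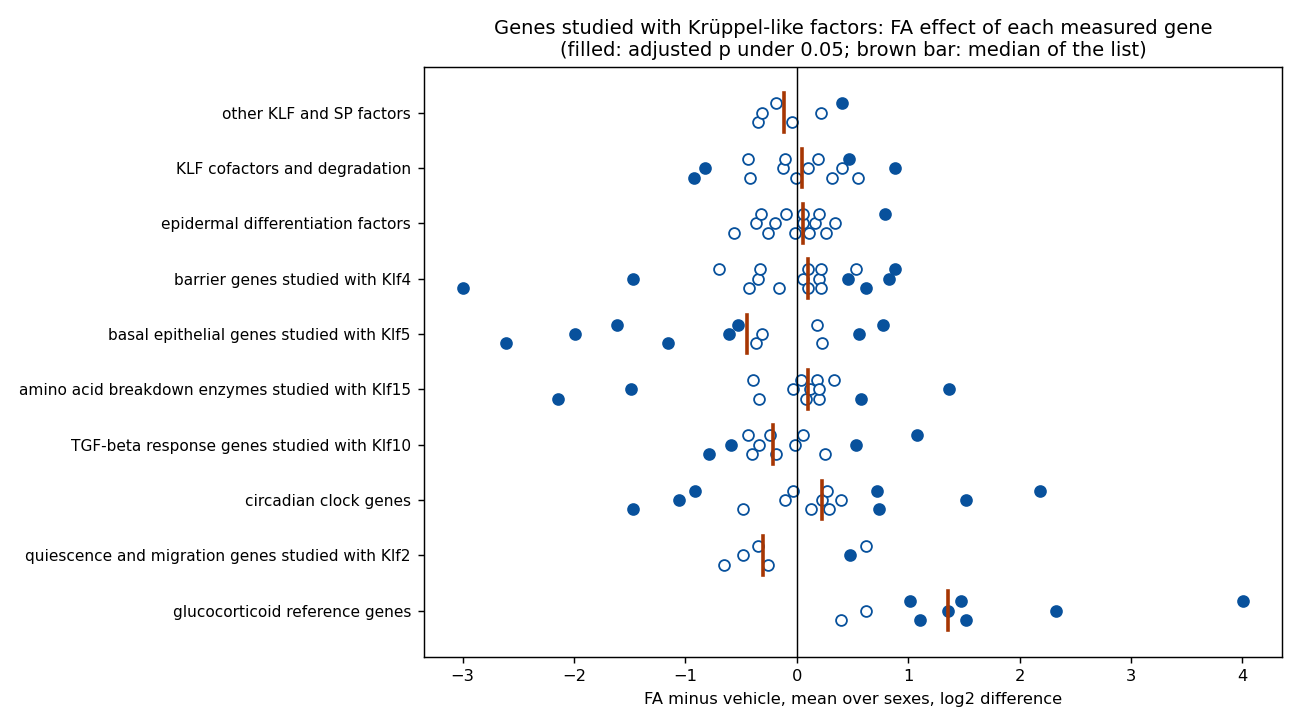
Log2 difference between FA and vehicle (mean over sexes) for each measured gene of each list, filled where the adjusted p was under 0.05, with the list's median as a brown bar. The glucocorticoid reference genes lie to the right of 0, and the genes studied with Klf5 have a median of -0.45.

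The genes whose levels followed Klf9 most closely over the 8 arrays, among the 4707 others whose mean signal was at least the median of all genes, were Slc7a6, an amino acid transporter (Pearson r = 0.998), Kcnj15, a potassium channel (0.993), Foxo1, a forkhead factor (0.993), and Tmod4, a tropomodulin (0.993). All 4 were higher with FA, by log2 differences of 2.72, 2.19, 1.34 and 2.58. The 8 points fall into an FA and a vehicle cluster, which any gene that separates them shares, and r is given as a description. For Klf10, the member with the lowest difference, the closest were Nomo1 (0.923), Rala (0.915), Capg (0.914) and Slc25a1 (0.901), over a range that includes values not above background.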

How the data were processed

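The authors deposited a table of unprocessed bead intensity values, each with a detection p-value, per the file headers, for 25697 probes on 8 arrays, and a table of log2 values for 13247 probes. The submitters' processing notes name limma; the scanner software is not given in the sources used here. Values were recomputed with R 4.3.3 and limma 3.58.1 (neqc: normexp with an offset of 16 and controls inferred from the detection p, then quantile normalization), and equal the deposited log2 values within 5.00e-09. Probes with detection p under 0.05 on at least 2 arrays were kept: 12476 with 1 gene symbol in the platform table, 771 unlisted there and left out. The probe with the highest mean stood for a gene (9416 genes, 2304 with several probes).

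One limma model with 4 group means (lmFit, eBayes, 4 residual and 3.35 prior degrees of freedom) gave all comparisons, two-sided, adjusted by Benjamini-Hochberg over 9416 genes, or over 12476 probes for the values of second probes. The design names 2 animals per condition, so each array was taken as 1 animal. Where a group was not above background, folds are bounds against the arrays' lowest signal above background. Arrays have no read depth, and their number limits the precision. The script was tested on simulated data. The members, the gene and marker lists and the rule for named genes (all members; up to 4 genes of each list with the smallest p; the 4 genes most correlated with the member of largest rise and of largest fall) were chosen with earlier results of these data known. Alternatives are given in the closing section.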

Additional observations from a re-analysis of the deposited data

Results flagged for a closer look

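The second probe of Klf6, ILMN_1232041, moved in opposite directions in the sexes: both FA females lay below both vehicle females (log2 difference -0.39) and both FA males above both vehicle males (0.75). The difference of these effects was 1.14 (95% interval 0.33 to 1.95), which did not pass in limma (adjusted p = 0.736). Of all 12476 probes, 492 (3.94%) showed such opposite directions. The main probe of Klf6 did not, and the female value was 0.00 with median scaling.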

How the results depend on the processing

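Limits: 2 animals a group, 1 array (female FA replicate 2) with a higher background, and dim probes for Klf2, Klf10, Klf15 and the second Klf6 probe. Where 1 array is left out, its partner is assumed to vary like the other groups. Klf9, Klf13 and Klf15 kept their calls in the mean FA effect under every alternative that measured them. Their log2 differences were 1.83 to 1.99, 1.42 to 1.98 and 0.50 to 1.15, in that order. Klf6 did not keep its call (0.36 to 0.67). Klf15 passed the main detection filter through its FA arrays alone, so its calls are not independent of that filter.

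Of the 10 factors, 4 rose in the mean FA effect, and 3 to 6 did when 1 array was left out. In females the 3 became 1 to 4, and in males the 2 became 1 to 5. For the interaction and for sex in FA the 0 became 0 to 1, the 1 being Klf2 without female FA replicate 1, where the genes passing rose from 2 to 1135 (interaction) and from 19 to 2024 (sex in FA). Over all 13 probes the 4 became 3 to 6. With array weights, which gave both arrays of a pair equal weight, 5 rose in males and 2 in females. Klf13 lost its call in females there (1.81, limma adjusted p = 0.0579). The other alternatives (median scaling, offset 50, detection at p under 0.01 on 4 arrays or on all 8 arrays, no detection filter, the mean of all probes, values floored, sex left out, the deposited table) gave counts within 1.5 times. Without a detection filter, probes not listed in the platform table entered as unnamed features, 22637 in all. In males Klf13 then lost its call (1.59, limma adjusted p = 0.0701) and Klf5 gained one (0.56, 0.0449), leaving the count at 2. The deposited table gives the same values by construction. Klf10 and Klf15 fall out under both stricter detection filters and Klf2 under that on all 8 arrays, so they have no value there. Of all genes, 1955 passed in the mean FA effect, against 1008 and 3585 when the first female vehicle or the first female FA array was dropped. With values floored, the median of all genes was 0.10 rather than -0.02.

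With the replicate number as a block the members called were 4, 3 and 2 in the mean, in females and in males, as without it. Deviations of same-numbered arrays correlated at -0.03 to 0.23, which showed no strong pairing by number. With 2 arrays a group this cannot exclude one. In the block fit 1906 of all genes passed in the mean.

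Values that changed sign, none of them past the threshold in either setting, were these. With median scaling, Klf10 was 0.10 in females and -0.40 in the interaction, Klf6 0.00 for sex in vehicle, and the second Klf6 probe 0.00 in females. With the mean of all probes, Klf4 was 0.12 in the mean, 0.18 in males and 0.12 in the interaction, and Klf6 0.36 in the interaction and 0.18 for sex in FA. With values floored, Klf10 was 0.09 in the mean, 0.34 in females, -0.50 in the interaction and -0.42 for sex in FA, and Sp8, Sp5 and Nos3 were 0.03, 0.07 and 0.10 in the mean. Flooring set Klf10 on female FA replicate 2 from 4.31 to 5.88, above every vehicle value of Klf10. The causes of the sign changes were not tested.

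Among the other named genes, Sp6 lost its call with median scaling (0.39), the mean of all probes (0.32) and array weights (0.41), Cdkn1a with the mean of all probes (0.44), Per3 with sex left out (-0.91), and Rbbp7 with detection on all 8 arrays (-0.35), the replicate block, no detection filter and sex left out (-0.92 in each). With offset 50, Cdk1, Got1 and Per3 were still called at -0.96, 0.34 and -0.59.

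With 1 array left out, these crossed 0. In the mean, Klf3 ran from -0.17 to 0.10, Klf4 from -0.11 to 0.08 and its probe ILMN_1221264 from -0.07 to 0.24. In females, Klf2 ran from -0.19 to 1.41, Klf3 from -0.05 to 0.06, and the Klf4 probes ILMN_1221264 from -0.28 to 0.35 and ILMN_1241903 from -0.15 to 0.17. In males, Klf3 ran from -0.35 to 0.20, Klf4 from -0.35 to 0.03, Klf10 from -0.44 to 0.01 and ILMN_1221264 from -0.15 to 0.43. In the interaction, Klf3 ran from -0.35 to 0.19, Klf10 from -0.16 to 0.51, Klf13 from -0.78 to 0.33 and ILMN_1221264 from -0.21 to 0.42. For sex in vehicle, Klf2 ran from -0.19 to 0.20, Klf3 from -0.46 to 0.09, Klf6 from -0.08 to 0.08, Klf9 from -0.07 to 0.05, Klf10 from -0.10 to 0.38, Klf13 from -0.27 to 0.84, Klf15 from -0.04 to 0.12 and ILMN_1221264 from -0.37 to 0.26. For sex in FA, Klf10 ran from -0.02 to 0.65, Klf13 from -0.09 to 0.21, ILMN_1221264 from -0.24 to 0.34 and ILMN_1241903 from -0.23 to 0.44.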
